A study of Homo sapiens with 24 samples.

Results

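The mitochondrial genome of the human cell carries 37 genes, and all 37 were found by their Ensembl identifiers among the 62757 genes of a count table of 24 bulk RNA sequencing libraries. They were chosen by symbol alone, as every gene whose symbol starts with MT-, and fall into 13 messenger RNA genes, 2 ribosomal RNA genes and 22 transfer RNA genes. The libraries came from HES3, an established human embryonic stem cell line, differentiated toward heart muscle as embryoid bodies with a Wnt-modulating protocol for up to 14 days. They formed 8 groups of 3, numbered 1, 2 and 3 in each group. Every group carried a GFP reporter at NKX2-5 and an mCherry reporter at NR2F2. CRISPR-Cas9 knockout was directed at LHX2, ZNF503 or ZNF711, with TRAC as the control target, and each target has libraries of 2 conditions, named AM and VM. AM and VM are not spelled out in the labels and were read as atrial and ventricular, the atrial culture having received retinoic acid at day 4. No label says that the libraries of a group came from separate cultures or from separate edited clones, so that the p-values measure the spread between these libraries, which may be technical. On RNA selection the labels conflict, naming polyA RNA as the molecule but a KAPA RiboErase step, which depletes ribosomal RNA, in the extraction.

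Mitochondrial DNA is a small circle read from both strands into long transcripts, which are cut at the transfer RNAs lying between most of the other genes. The messengers encode core subunits of the respiratory chain and of ATP synthase, and the remaining subunits, the RNA polymerase POLRMT and the proteins of the mitochondrial ribosome are made from nuclear genes. Mitochondrial messengers and ribosomal RNAs carry short A tails in human cells, and heart muscle is known for a large share of mitochondrial RNA.

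Library totals ran from 2899786 to 7438010 counts, with a median of 5113567, and 17724 genes entered the tests. RNA of the targeted genes did not always follow the labels. Levels are given in CPM, which sets the counts of each library to the same scaled total so that libraries can be compared, and LHX2 was at 0 to 6.90 CPM in all libraries. ZNF503 was at 254.0 to 365.3 CPM in the libraries labelled AM ZNF503 against 103.0 to 122.3 in AM TRAC, and at 19.1 to 45.1 in those labelled VM ZNF503 against 8.79 to 16.2 in VM TRAC. ZNF711 was at 31.1 to 55.6 CPM in AM ZNF711 against 47.2 to 60.02 in AM TRAC, and at 25.8 to 33.7 in VM ZNF711 against 34.4 to 47.8 in VM TRAC. The group names are therefore used as labels. All 10 cardiomyocyte markers had counts in every group, and they did not share a direction. MYH7, the slow myosin heavy chain, was at 15.1 to 128.8 CPM in AM and 365.3 to 1030 CPM in VM libraries. TNNT2 was at 246.7 to 602.3 CPM in AM and 116.8 to 651.3 in VM libraries, which overlapped. TNNI3 went the other way from MYH7, with every AM TRAC library above every VM TRAC library.

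The shortest and the overlapping genes decide what such a table can show, so their sequences are given first, from the GENCODE 29 transcripts of GRCh38 and in the direction of the transcript. The transfer RNA genes are 59 to 75 bases long. Those with the most counts were MT-TT (threonine, chrM:15888-15953), MT-TP (proline, chrM:15956-16023) and MT-TW (tryptophan, chrM:5512-5579). The anticodon is in capitals.
MT-TT: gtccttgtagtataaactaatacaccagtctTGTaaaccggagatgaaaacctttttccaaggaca
MT-TP: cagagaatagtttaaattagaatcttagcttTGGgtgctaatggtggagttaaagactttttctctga
MT-TW: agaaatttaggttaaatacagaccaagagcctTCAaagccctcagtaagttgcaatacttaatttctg

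Both pairs of messengers that overlap in sequence by more than 1 base are read from 1 shared RNA each. MT-ATP8 and MT-ATP6, subunits of ATP synthase, share 46 bases at chrM:8527-8572, and MT-ND4L and MT-ND4, subunits of complex I, share 7 bases at chrM:10760-10766. The start codon of the downstream gene is in capitals. How reads in the shared bases were assigned is not given in the sources used here, and the values of MT-ATP8, of which the overlap is a large part, are the least certain for that reason.
MT-ATP8 and MT-ATP6: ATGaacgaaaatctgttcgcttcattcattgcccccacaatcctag
MT-ND4L and MT-ND4: ATGctaa

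Nuclear chromosomes hold copies of mitochondrial DNA, and 404 such copies are in the table. A block of them on chromosome 1 is nearly identical to the mitochondrial genes. MTATP8P1 differs from MT-ATP8 at 5 of 207 bases (97.58% identity, chrM:8366-8572), which are in capitals.
MT-ATP8: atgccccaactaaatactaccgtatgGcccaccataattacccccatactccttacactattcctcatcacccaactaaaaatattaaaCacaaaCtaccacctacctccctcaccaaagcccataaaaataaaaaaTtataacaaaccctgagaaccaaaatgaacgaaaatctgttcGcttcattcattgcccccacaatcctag

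The copies MTND1P23, MTND2P28, MTCO1P12, MTCO2P12, MTATP8P1, MTATP6P1 and MTCO3P12 align to their mitochondrial genes with 97.58% to 99.15% identity, and each was listed at 0 in all 24 libraries. Of the windows of 50 bases in MT-CO1, 49.5% also occur exactly in a listed nuclear copy. The share was 46.7% in MT-ATP6, 43.6% in MT-ND2 and 22.1% in MT-ND1, and it was 0 in MT-ND3, MT-ND4L and MT-RNR1. The read length and the treatment of reads that match several places are not given in the sources used here, and levels of the genes with shared windows are uncertain to that extent. In all, 325 of the 404 copies had no count, and the copies summed to 15 to 110 counts per library, or 0.0121% to 0.136% of the counts of the 37 mitochondrial genes. The copy with the most was MTND5P2, with 105 counts over all libraries.

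The 13 messengers held nearly all mitochondrial counts. Over the 24 libraries they had 3048115 counts, the 2 ribosomal RNAs 235087 and the 22 transfer RNAs 2018. Messengers made up 1.24% to 3.57% of all counts in a library, ribosomal RNAs 0.00621% to 0.547%, and transfer RNAs 0.000624% to 0.00349%. Messengers thus varied less than 3-fold between libraries, while the ribosomal share spread over nearly 2 powers of 10.

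**Figure D1:**
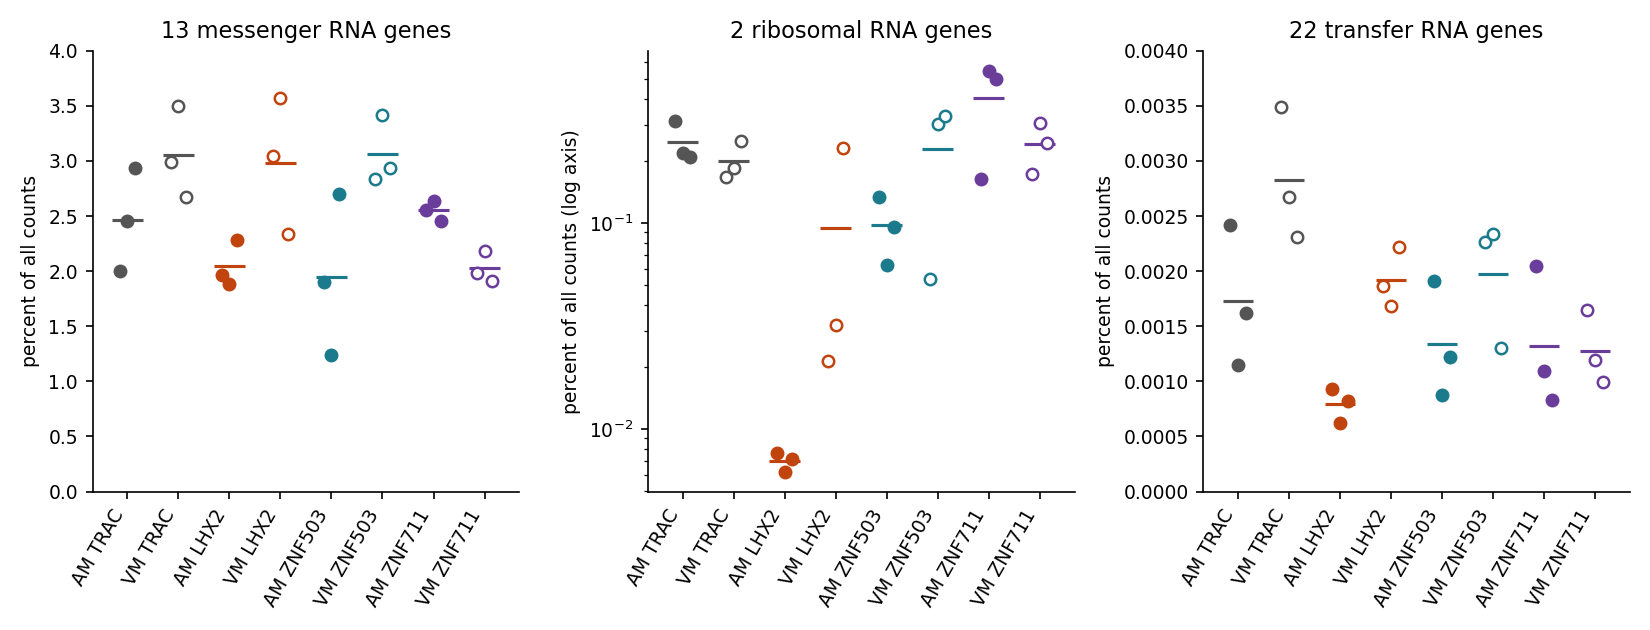
Percent of all counts held by each class of mitochondrial genes, 1 point per library and 3 libraries per group, with filled points for AM, open points for VM and a line at the group mean; the ribosomal panel has a log axis. The 3 AM LHX2 libraries lie at 0.00621% to 0.00766% ribosomal counts, and the messenger share of ZNF711 is the only one in which every AM library lies above every VM library.

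Per length, the messengers of complex IV and MT-ND1 stood highest. In CPM per kilobase of gene (RPKM), the median over all libraries was 5674 for MT-CO1, the catalytic subunit of cytochrome c oxidase, 3208 for MT-CO3, 3020 for MT-ND1, 2545 for MT-CO2 and 2271 for MT-ND4. MT-ND5, MT-CYB (cytochrome b of complex III) and MT-ND2 followed with medians of 1241, 1212 and 1167 RPKM, and MT-ATP6 with 946. The lowest were MT-ND3 at 503, MT-ND4L at 269.9, MT-ND6 at 254 and MT-ATP8 at 96.1 RPKM. MT-ND6 is the only messenger made from the light-strand transcript. Neighbours in this order overlapped over the libraries, as MT-CO3 with 1703 to 4570 and MT-ND1 with 1445 to 5024 RPKM. MT-CO1 ranged from 2831 to 8478 RPKM.

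The ribosomal RNAs stood below most messengers, with medians of 673 RPKM for MT-RNR1, the small, and 741 for MT-RNR2, the large ribosomal RNA. Both genes spread far more than any messenger. The highest library exceeded the lowest by 89.2-fold in MT-RNR1 and 111.6-fold in MT-RNR2, against 2.68-fold in MT-CO3 to 3.95-fold in MT-ND2 for the messengers other than MT-ATP8, which spread 23.4-fold on 12 to 303 counts per library. MT-RNR2 had 1.16 to 2.29 times the counts of MT-RNR1, so that the 2 genes moved together from library to library.

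**Figure D2:**
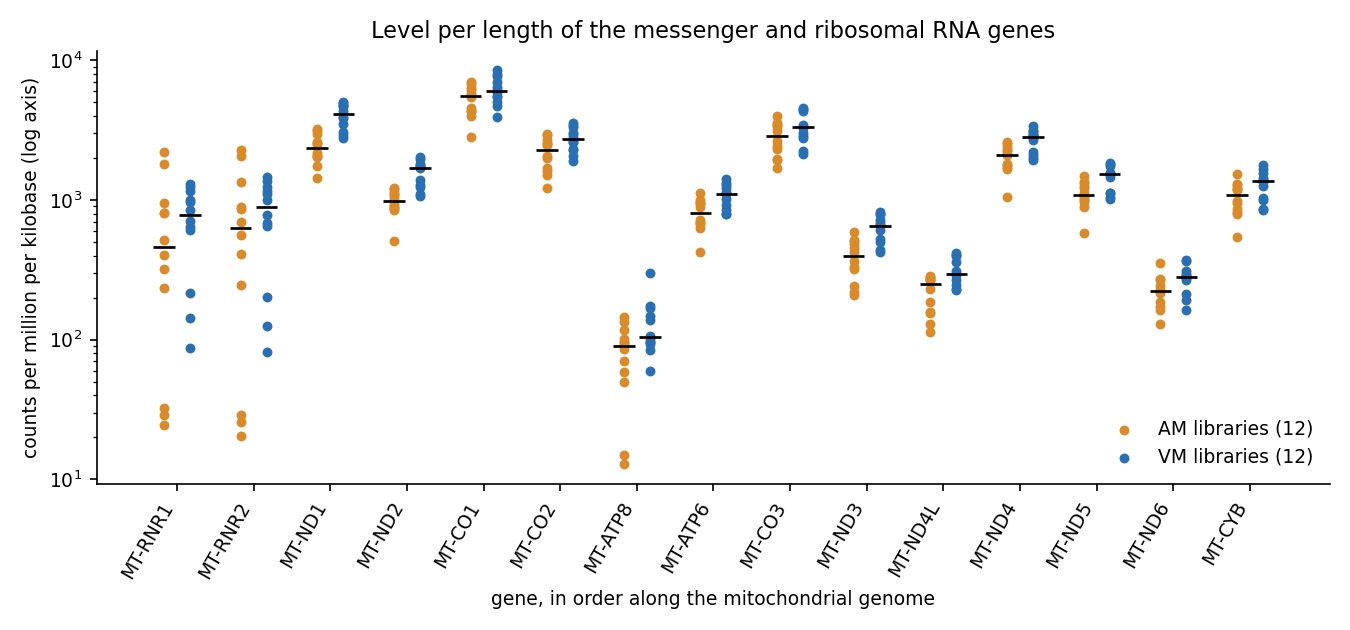
CPM per kilobase (log axis) of the 13 messenger and 2 ribosomal RNA genes in their order along the mitochondrial genome, 1 point per library, with 12 AM and 12 VM libraries side by side and a line at each median. MT-CO1 is highest with a median of 5674, MT-ATP8 lowest with 96.1, and the ribosomal RNAs reach from 20.3 to 2267.

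Transfer RNAs were nearly uncounted. Of the 22 genes, 16 had a count in some library, and none had more than 10 counts in every library. MT-TT had 563 counts over all libraries, MT-TP 494 and MT-TW 421, which together made 73.2% of the class. MT-TE (glutamate) followed with 164 and MT-TS1 (a serine transfer RNA) with 86. The 6 genes at 0 were MT-TL1, MT-TK, MT-TG, MT-TR, MT-TH and MT-TL2. For a single library a count of 0 allows a level of up to 0.403 to 1.03 CPM (3 counts, counting error only). All 6 are among the 14 transfer RNAs of the heavy-strand transcript, whose median total was 1 count. The 8 of the light-strand transcript all had counts, with a median of 55. The strand setting of the counting is not given in the sources used here, so the strand these reads came from is not known. Only MT-TW, MT-TE, MT-TT and MT-TP were abundant enough to be tested, so 19 of the 37 genes entered the tests.

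The first comparison was of the 2 conditions in the control target. Messengers stood lower in AM than in VM, and 3 were called lower, MT-ND1, MT-ND2 and MT-ND4L. All belong to complex I, as do 7 of the 13 messengers. MT-ND1, a membrane subunit of complex I, was at 1991, 2473 and 3110 CPM in AM TRAC 1, 2 and 3 and at 4159, 4803 and 4749 CPM in VM TRAC. The groups did not overlap, and MT-ND1 fell by 0.86 on the log2 scale (standard error 0.21, edgeR adjusted p 0.00688). In bulk RNA, fewer cells of a type and less RNA per cell cannot be told apart.

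MT-ND2, another membrane subunit of complex I, was at 882, 1181 and 1252 CPM in AM TRAC and at 1885, 2041 and 1793 in VM TRAC. It fell by 0.79 on the log2 scale (standard error 0.22, edgeR adjusted p 0.0193). MT-ND4L was at 68.8, 81.6 and 85.3 CPM in AM TRAC and at 124.5, 119.4 and 106.4 in VM TRAC, and fell by 0.57 on the log2 scale (standard error 0.17, edgeR adjusted p 0.0299). Of both genes, too, every AM TRAC library lay below every VM TRAC library.

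The other 10 messengers were not called in TRAC. All 13 fitted values lay below 0, beside 53.1% of all genes, with a median of −0.40 against −0.035 over all genes tested. In 7 messengers every AM library lay below every VM library, beside 11.7% of all genes. The fitted value was −0.22 (standard error 0.25) for MT-CO1, −0.09 (standard error 0.22) for MT-CO3 and −0.20 (standard error 0.22) for MT-CYB. The count of 3 called genes of 19 stands beside 11.3% of all genes called in this comparison and 5.12% called lower. It was 0 without AM TRAC replicate 1, 1 without VM TRAC replicate 2 and 1 with only the 2 groups in the fit. With the replicate number as a block, which called 19.4% of all genes, MT-TW was called as well (adjusted p 0.0374).

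No ribosomal RNA was called in TRAC, and whether they differed from the messengers was not tested. MT-RNR2 was at 2098, 1384 and 1334 CPM in AM TRAC and at 1024, 1224 and 1816 in VM TRAC, so that the groups overlapped. The fitted log2 fold changes were 0.25 (standard error 0.78) for MT-RNR2 and 0.16 (standard error 0.71) for MT-RNR1.

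In LHX2 the messengers again stood lower in AM. MT-ND4L was at 46.1, 33.7 and 38.3 CPM in AM LHX2 and at 87.7, 92.5 and 73.6 in VM LHX2. MT-ND4L fell by 1.11 on the log2 scale (standard error 0.18, edgeR adjusted p 0.000145), and MT-ND3, a small complex I subunit, by 1.28 (standard error 0.23, edgeR adjusted p 0.000606). In all, 8 of 13 messengers fell (MT-ND1, MT-ND2, MT-ND3, MT-ND4L, MT-CO2, MT-CO3, MT-ATP6 and MT-ATP8), beside 8.56% of all genes called and 3.88% called lower. The median of the 13 was −0.79 against 0.002 over all genes, all 13 were below 0 beside 49.8% of all genes, and 11 did not overlap, beside 11.4% of all genes lying wholly below. MT-RNR1 fell too, at a log2 fold change of −3.66 with a standard error of 0.82 (edgeR adjusted p 0.00872), and MT-RNR2 at −4.01 with a standard error of 0.90 (edgeR adjusted p 0.00856). MT-RNR2 was at 40.3, 31.7 and 45.1 CPM in AM LHX2 and at 126.6, 194 and 1567 in VM LHX2. The size of its fall thus rests largely on VM LHX2 3, and MT-RNR1 had the same spread, at 82.4, 136 and 808 CPM in VM LHX2. MT-TT was counted 2, 0 and 2 times in AM LHX2 and 16, 26 and 49 times in VM LHX2, a value of −4.12 (standard error 0.77, edgeR adjusted p 0.000788). The block, with 15.7% of all genes called, added MT-TW (adjusted p 0.0129). The count of 11 called genes was 5 without AM LHX2 replicate 2 and 7 without VM LHX2 replicate 2.

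ZNF503 showed the same direction with a wider spread among its AM libraries. MT-ND1 was at 1992, 1381 and 2839 CPM in AM ZNF503 and at 3734, 4491 and 4514 in VM ZNF503. It fell by 1.04 on the log2 scale (standard error 0.21, edgeR adjusted p 0.00145). Again 8 of 13 messengers fell (MT-ND1, MT-ND2, MT-ND3, MT-ND4, MT-ND4L, MT-ND5, MT-CYB and MT-ATP6), with 8.86% of all genes called and 4.1% called lower, and the median of the 13 was −0.72 against 0 over all genes. All 13 were below 0, beside 50% of all genes, and 9 lay wholly below, beside 10.8%. Library AM ZNF503 2, with the lowest messenger share of all, weighed on this count, which was 2 of 19 without it and likewise 2 with only these 2 groups in the fit. It was 3 without AM ZNF503 replicate 1 and 3 without VM ZNF503 replicate 2. With the block, which called 14.9% of all genes, MT-ATP6 lost its call (adjusted p 0.0611) and MT-CO2 gained one (adjusted p 0.0414).

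ZNF711 stood apart from these. MT-CO1 was at 8683, 10370 and 9532 CPM in AM ZNF711 and at 6028, 7787 and 7324 in VM ZNF711, with every AM library above every VM library. MT-ND1 was at 2461, 2993 and 2405 CPM in AM ZNF711 and at 2645, 2936 and 2809 in VM ZNF711, and these overlapped. The fitted value was 0.44 (standard error 0.25, edgeR adjusted p 0.263) for MT-CO1 and −0.09 (standard error 0.21, edgeR adjusted p 0.825) for MT-ND1. Of 13 messengers 10 had values above 0, beside 50.2% of all genes, with a median of 0.18. In 4, MT-CO1, MT-CO2, MT-CO3 and MT-CYB, every AM library lay above every VM library, beside 16.5% of all genes. None of the 19 genes was called by edgeR, 1 had an unadjusted p below 0.05, and DESeq2 called 0, beside 13.2% of all genes called in this comparison. With only these 2 groups in the fit 2 were called, and without the filter 3, and the share of all genes called in these settings is not given here.

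**Figure D3:**
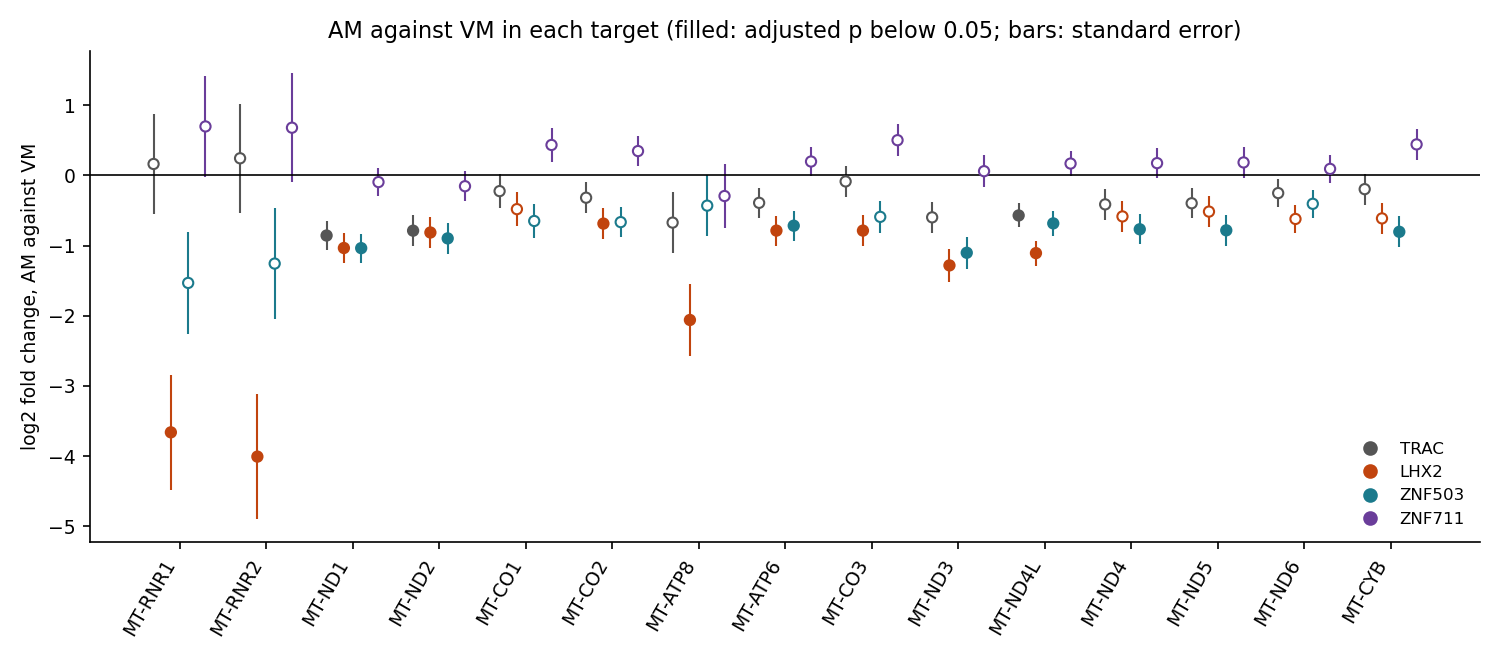
Fitted log2 fold change of AM against VM for each messenger and ribosomal RNA gene in genome order, 1 point per target, with bars of 1 standard error and filled points for an adjusted p below 0.05. TRAC, LHX2 and ZNF503 lie below 0 for every messenger, 10 of 13 ZNF711 values lie above 0, and the ribosomal RNAs of LHX2 reach −4.01.

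Averaged over the 4 targets, 11 of 13 messengers fell in AM, all but MT-CO1 and MT-CO3. The values ran from −0.23 for MT-CO1 (standard error 0.12, edgeR adjusted p 0.16) to −0.86 for MT-ATP8 (standard error 0.23, edgeR adjusted p 0.00548). MT-ND1 fell by 0.76 (standard error 0.10, edgeR adjusted p 2.32e-06), MT-ND3 by 0.73 with a standard error of 0.11 (edgeR adjusted p 1.87e-05) and MT-ND2 by 0.66 with the same standard error (edgeR adjusted p 3.38e-05). MT-RNR1, MT-RNR2, MT-TT and MT-TP fell as well, so that 15 of 19 genes were called, beside 34.5% of all genes called, 16.8% higher and 17.6% lower. Without LHX2 in the mean, a setting added after the data were seen, 6 of the 19 were called, all among the 7 messengers of complex I. The ribosomal RNAs were then at −0.22 for MT-RNR1 and −0.11 for MT-RNR2. Without ZNF711, 17 were called, MT-CO1 and MT-CO3 included. The share of all genes called with a target left out is not given here. With the block, where 41.7% of all genes were called, MT-CYB (adjusted p 0.0667) and MT-RNR2 (adjusted p 0.0772) lost their calls and MT-TW gained one (adjusted p 0.00443).

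Some markers of other cells also differed between the conditions. The summed level of 7 endoderm markers was 134.9 to 1552 CPM in AM and 1069 to 18430 in VM libraries, that of 7 fibroblast markers 4117 to 7256 in AM and 1703 to 4900 in VM, and that of 10 cardiomyocyte markers 14910 to 29510 in AM and 11480 to 41680 in VM. For endothelial markers the sums were 377.9 to 720.8 CPM in AM and 304.6 to 431.1 in VM. Pluripotency markers summed to 136.5 to 183.3 in AM and 151.4 to 425.2 in VM, and neural markers to 7.48 to 18.0 and 0.616 to 26.4. In the mean over 4 targets 16.8% of all genes were called higher in AM and 17.6% lower. Of 7 endoderm markers 4 were called lower and 1 higher, of 7 fibroblast markers 3 higher, and of 10 cardiomyocyte markers 5 lower and 1 higher. No defining marker of these lists was at 0 throughout a condition. Their part in the messenger levels was not tested.

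Within the 13 messengers the make-up differed between the conditions as well. MT-ND1 took 10.4%, 10.2% and 10.5% of messenger counts in AM TRAC and 14.4%, 13.3% and 16.1% in VM TRAC. Over all targets its share was 9.42% to 11.4% in the 12 AM libraries (mean 10.4%) and 12.5% to 16.1% in the 12 VM libraries (mean 13.6%), with no overlap, ZNF711 included. The share of MT-ND2 was lower in every AM library than in every VM library of the same target, with means of 4.56% and 6.08% in TRAC and 4.19% and 5.65% in ZNF711.

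MT-CO1 took the larger share in AM, with means of 35.4% against 31.8% in TRAC and 37.4% against 33.5% in ZNF711, where the libraries overlapped. MT-CO3 took 10.7% against 8.71% in TRAC but 8.53% against 9.46% in LHX2, so that its direction was not shared between targets. With counts scaled to the sum of the 13 messengers, an alternative chosen after seeing the data, 3 messengers were called in the mean over 4 targets. These were MT-ND1 at −0.39 (edgeR adjusted p 0.00491), MT-ND3 at −0.36 (edgeR adjusted p 0.00654) and MT-ND2 at −0.30 (edgeR adjusted p 0.023). In TRAC alone MT-ND1 was at −0.50 on that scale (edgeR adjusted p 0.161). Small p-values were common among all genes on that scale. For MT-ND2 in the mean the edgeR p was 0.00936 before adjustment and 0.023 after it. The share of all genes called there is not given here, so the 3 calls cannot be read as more than all genes showed.

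**Figure D4:**
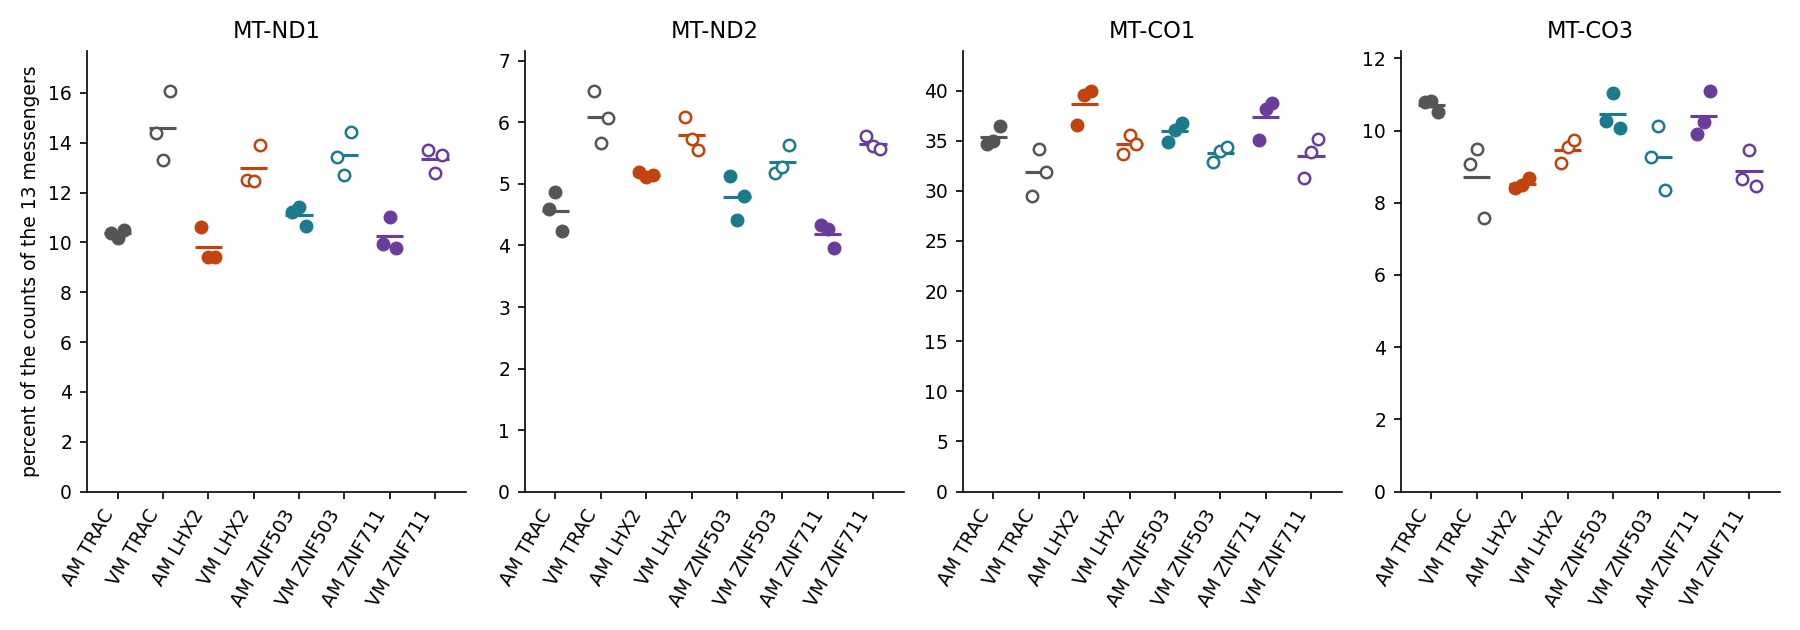
Percent of the counts of the 13 messengers held by MT-ND1, MT-ND2, MT-CO1 and MT-CO3, 1 point per library, with filled points for AM, open points for VM and a line at the mean of each group of 3. The 12 AM libraries lie at 9.42% to 11.4% MT-ND1 and the 12 VM libraries at 12.5% to 16.1%.

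The next question was whether each target changed mitochondrial RNA against TRAC in the same condition. In AM LHX2 both ribosomal RNAs were nearly missing. The 3 AM LHX2 libraries had 40.3, 31.7 and 45.1 CPM of MT-RNR2 (39.0 ± 6.79, SD, n = 3), where AM TRAC had 2098, 1384 and 1334 (1606 ± 428, SD, n = 3). For MT-RNR1 they had 30.7, 27.3 and 23.5 CPM, where AM TRAC had 915, 765 and 773. The groups lay far apart, and the same was seen in part in VM LHX2, where MT-RNR2 was at 126.6, 194 and 1567 CPM. VM LHX2 1 and 2 were thus low and VM LHX2 3 was in the range of VM TRAC, at 1024 to 1816 CPM.

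The fitted log2 fold change of AM LHX2 against AM TRAC was −5.36 for MT-RNR2 (standard error 0.95) and −4.92 for MT-RNR1 (standard error 0.86), both at an edgeR adjusted p of 0.131. Without the block no gene of the table was called in this comparison (0% of all genes), while 1372 genes, 11 of the 19 mitochondrial ones among them, had an unadjusted p below 0.05. With the block 1.13% of all genes were called, 0.677% lower, and 5 of 19 mitochondrial genes fell. These were MT-RNR1 and MT-RNR2 (both adjusted p 0.0163), MT-ND4L (0.00535), MT-TT (0.0102) and MT-ATP8 (0.0473). DESeq2 called 5, and edgeR with only the 2 groups called 6, and the share of all genes called by these 2 fits is not given here.

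Messengers of AM LHX2 lay nearer to those of AM TRAC. MT-ND4L was at 46.1, 33.7 and 38.3 CPM against 68.8, 81.6 and 85.3, a fitted value of −1.001 (standard error 0.18). MT-ATP8 was at 10.2, 3.09 and 2.65 CPM against 29.9, 19.7 and 19.4, a fitted value of −2.19 (standard error 0.51), on 32, 12 and 14 counts in AM LHX2. MT-CO1, at 6661, 7072 and 8817 against 6658, 8484 and 10800 CPM, overlapped. All 13 values lay below 0, beside 50.2% of all genes, with a median of −0.53 against −0.001 over all genes. In 6 messengers every AM LHX2 library lay below every AM TRAC library, beside 9.72% of all genes. Nuclear genes of the same complexes leaned the same way, with 32 of 37 of complex I, 13 of 14 of complex IV and 17 of 18 of complex V below 0, at medians of −0.30, −0.36 and −0.23. None of these was called without the block, and 4, 3 and 5 were called lower with it, beside 0.677% of all genes.

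Other RNAs without a long A tail also stood low in AM LHX2. RN7SL1, the RNA of the signal recognition particle, was at 775, 1249 and 1321 CPM against 1727, 3616 and 5133 in AM TRAC, and RMRP, the RNA of an RNA-processing enzyme, at 673.7, 1043 and 864 against 2209, 3234 and 3077. With the block both were called (adjusted p 0.0268 and 0.0211), and without it neither was (edgeR adjusted p 0.629 and 0.457). In VM LHX2, RN7SL1 was at 935, 3657 and 6510 CPM against 914, 4007 and 6024 in VM TRAC, and these overlapped. There RMRP was at 708, 2078 and 3763 CPM, where VM TRAC had 971, 3680 and 3504, lower than the same-numbered library in replicates 1 and 2 and higher in replicate 3, and these overlapped too. Of 47 replication-dependent histone genes, whose messengers lack an A tail, 45 had values below 0 in AM LHX2 against AM TRAC, beside 50.2% of all genes. Their median was −0.59, and 5 were called lower with the block, beside 0.677% of all genes. The labels conflict on how RNA was selected, and the part of RNA selection in these values was not tested.

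Against TRAC neither ribosomal RNA was called in another target, with or without the block. In AM ZNF503 MT-RNR2 was at 871, 387 and 636 CPM, below every AM TRAC library, as 4.01% of all genes were, with a fitted value of −1.35 (standard error 0.79, edgeR adjusted p 1). All 13 messengers of AM ZNF503 were below 0, beside 50.1% of all genes, with a median of −0.38, and all 13 overlapped AM TRAC. In AM ZNF711 MT-RNR2 was at 1087, 3535 and 3246 CPM, which overlapped AM TRAC. In VM ZNF503 it was at 316, 1941 and 2264 CPM against 1024, 1224 and 1816 in VM TRAC. VM ZNF503 1 thus lay below every VM TRAC library, and VM ZNF503 2 and 3 above. The medians of the 13 messengers were 0.04 in AM ZNF711, −0.15 in VM LHX2 and −0.065 in VM ZNF503. In AM ZNF503 and AM ZNF711 against AM TRAC, and in VM LHX2 and VM ZNF503 against VM TRAC, edgeR called no gene of the table (0% of all genes). Among the 19 mitochondrial genes, 2, 1, 1 and 2 had an unadjusted p below 0.05 in AM ZNF503, AM ZNF711, VM LHX2 and VM ZNF503, and DESeq2 called 0 in each.

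In VM ZNF711 the messengers stood lower than in VM TRAC, without a call. MT-ND1 was at 2645, 2936 and 2809 CPM against 4159, 4803 and 4749, a fitted value of −0.71 (standard error 0.21, edgeR adjusted p 0.232). MT-ND6 was at 101, 111 and 85.1 CPM against 141, 195.0 and 193, a fitted value of −0.83 (standard error 0.20, edgeR adjusted p 0.165). Of both genes every VM ZNF711 library lay below every VM TRAC library. This was so in 12 of 13 messengers, where 4.72% of all genes lay wholly below, and all 13 values were below 0, beside 50.6% of all genes, with a median of −0.63 against −0.005 over all genes.

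In this comparison 0.0169% of all genes were called, and edgeR called none of the 19, of which 14 had an unadjusted p below 0.05. With the block 2.27% of all genes and 2 of the 19 were called, MT-ND4L (adjusted p 0.0174) and MT-TW (adjusted p 0.0474), and DESeq2 called 2. Without VM TRAC replicate 3, 1 was called. The share of all genes called by DESeq2 or without that library is not given here. The ribosomal RNAs had fitted values of 0.28 (standard error 0.71) for MT-RNR1 and 0.27 (standard error 0.78) for MT-RNR2. Whether they differed from the messengers was not tested. All 10 cardiomyocyte markers had values below 0, beside 50.6% of all genes, with a median of −0.92. Their summed level was 11480 to 17380 CPM in VM ZNF711 and 15260 to 41680 in VM TRAC, and that of the endoderm markers was 6470 to 18430 against 2174 to 17300 CPM. Their part in the messenger levels was not tested.

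**Figure D5:**
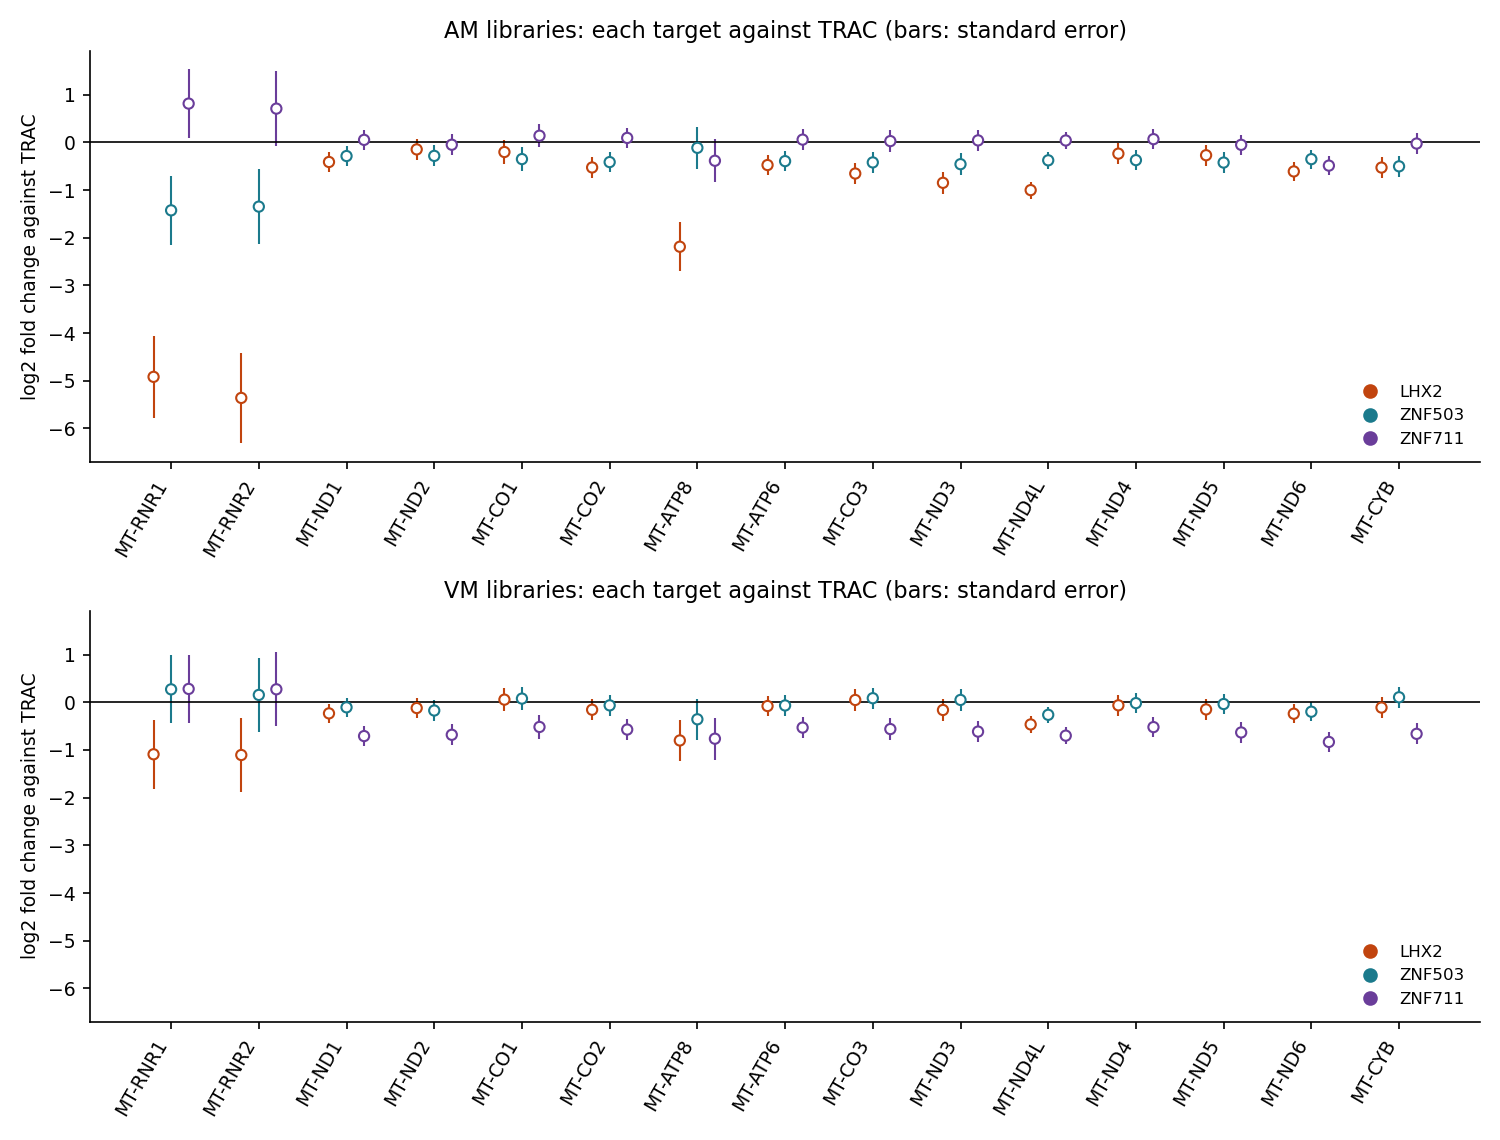
Fitted log2 fold change of each target against TRAC in AM (top) and VM (bottom) libraries for the messenger and ribosomal RNA genes in genome order, with bars of 1 standard error; no point passes an adjusted p of 0.05. The ribosomal RNAs of AM LHX2 lie at −4.92 and −5.36, and all 13 messengers of VM ZNF711 lie below 0.

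Whether the effect of a target differed between the conditions was tested as an interaction. For ZNF711 all 13 messenger values lay above 0, beside 51.9% of all genes, with a median of 0.63, the largest being 0.76 for MT-ND1 (standard error 0.29, edgeR adjusted p 0.608). None of the 19 genes was called in any of the 3 interactions, against 0%, 0% and 0.00564% of all genes for LHX2, ZNF503 and ZNF711. Among the 19, 6, 0 and 3 had an unadjusted p below 0.05, and DESeq2 called 0. For LHX2 the values of MT-RNR2 and MT-RNR1 were −4.25 (standard error 1.16) and −3.83 (standard error 1.07), both with an edgeR adjusted p of 1. These comparisons share the TRAC libraries. A contrast added after the data were seen set the AM against VM value of ZNF711 against that of LHX2 or of ZNF503 directly. Against LHX2, MT-ND4L was at 1.28 (standard error 0.25, edgeR adjusted p 0.113), and no mitochondrial gene was called, beside 0.00564% of all genes. With the block 1.19% of all genes were called, MT-ND4L (adjusted p 0.00942) and MT-TT (adjusted p 0.0377) among them. Against ZNF503 none was called with or without the block, beside 0.468% of all genes with it and 0.00564% without.

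Nuclear genes for the same complexes are described by target in their values of AM against VM. In the interactions of target and condition none of these genes was called, with or without the block. In AM TRAC against VM TRAC none of the 37, 4, 9, 14 and 18 tested nuclear genes of complexes I, II, III, IV and V was called, with medians of 0.05, −0.31, 0.02, 0.03 and 0.001 against −0.035 over all genes. With the block 2 of complex I were called higher and 1 of complex III lower, beside 10.2% of all genes called higher and 9.2% lower. In LHX2, 31 of 37 genes of complex I, 8 of 9 of complex III, 11 of 14 of complex IV and 17 of 18 of complex V had values below 0, as the messengers did, with medians of −0.195, −0.246, −0.315 and −0.288, and 1, 1, 1 and 3 were called lower beside 3.88% of all genes. In ZNF503 the medians were 0.006, −0.133, −0.139 and −0.154, and 1 gene each of complexes I and IV was called lower beside 4.1%. In ZNF711, 33 of 37, 7 of 9, 12 of 14 and 13 of 18 had values above 0, as 10 of 13 messengers did, with medians of 0.354, 0.186, 0.273 and 0.231, and 3 genes of complex I and 1 of complex IV were called higher beside 6.8% of all genes. In the mean over 4 targets 16.8% of all genes were called higher and 17.6% lower. Of the nuclear genes, 2 of 37 of complex I were called higher and 1 lower. Called lower were also 2 of 9 of complex III, 1 of 14 of complex IV and 1 of 18 of complex V. COX6A2, the heart and muscle form of a complex IV subunit, was among them at −1.10 (standard error 0.30, edgeR adjusted p 0.00628), as was ATP5IF1, an inhibitor of ATP synthase, at −0.34 (standard error 0.10, edgeR adjusted p 0.0106).

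Among genes that act on mitochondrial RNA, LRPPRC was called lower in AM. LRPPRC, which stabilises mitochondrial messengers, was at 227.1, 234 and 243 CPM in AM TRAC and at 322, 339.7 and 294 in VM TRAC. It fell by 0.44 on the log2 scale (standard error 0.11, edgeR adjusted p 0.00929) and was the only 1 of 17 genes of RNA processing and decay to be called in TRAC, where 5.12% of all genes were called lower. In the mean over 4 targets 3 of those 17 fell, a share near the 17.6% of all genes called lower, among them FASTKD1 by 0.55 (standard error 0.15, edgeR adjusted p 0.00508).

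Of 6 genes of mitochondrial transcription none was called in TRAC without the block and 2 were called lower with it, beside 9.2% of all genes. In the mean 2 fell, beside 17.6% of all genes. POLRMT fell by 0.35 (standard error 0.08, edgeR adjusted p 0.00122) and TFB2M, its partner in starting transcription, by 0.79 (standard error 0.15, edgeR adjusted p 0.000124). TFAM, which packs mitochondrial DNA, is on the same list and was at 31.9, 45.1 and 37.4 CPM in AM TRAC and 33.5, 50.3 and 34.6 in VM TRAC, which overlapped. Of 8 genes of mitochondrial DNA replication 3 fell in the mean, beside the same 17.6%, among them SSBP1, the single-strand binding protein, by 0.27 (standard error 0.07, edgeR adjusted p 0.00549).

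Of 75 tested genes for mitochondrial ribosomal proteins 2 fell in TRAC, where 5.12% of all genes were called lower, MRPS6 by 0.67 (edgeR adjusted p 0.00484) and MRPL46 by 1.60 (edgeR adjusted p 0.04), and in the mean 17 were lower and 1 higher, with a median of −0.15 against −0.008 over all genes. The share of lower calls, 17 of 75, stands beside 17.6% of all genes called lower. Of 19 mitochondrial aminoacyl-tRNA synthetases 1 fell in TRAC, near the 5.12% of all genes, and 6 in the mean beside 17.6%, among them EARS2, which charges the glutamate transfer RNA, by 0.53 (standard error 0.09, edgeR adjusted p 5.32e-05).

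Of 10 regulators of mitochondrial biogenesis 2 rose and 2 fell in the mean, beside 34.5% of all genes called in either direction. PPARGC1A, a coactivator of respiratory genes, rose by 0.68 (standard error 0.14, edgeR adjusted p 0.000637) and ESRRG, a nuclear receptor, by 0.54 (standard error 0.16, edgeR adjusted p 0.012). PPARGC1B fell by 1.18 (standard error 0.14, edgeR adjusted p 1.65e-07) and PPARA, a receptor that controls fatty acid oxidation, by 0.69 (standard error 0.11, edgeR adjusted p 2.06e-05). PPARGC1B was at 14.8, 15.6 and 12.5 CPM in AM TRAC and at 28.8, 45.4 and 33.8 in VM TRAC, and these did not overlap.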

How the data were processed

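The deposited values were raw gene counts by Ensembl identifier for 24 libraries; the authors' genome build was GRCh38 and STAR is named, per the submitters' processing notes. The counting program, annotation release, strand setting and read length were not given in the sources used here, so reads of genes that overlap on opposite strands cannot be told apart. All 37 mitochondrial identifiers matched GENCODE 29, which gave positions, lengths and sequences; 62686 identifiers had a symbol, 0 count columns were unmatched and 0 entries were not genes. Members, lists and tests were chosen with earlier results of these data known, and support nothing by themselves.

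Genes passing filterByExpr (17724) were tested with edgeR 4.0.16 (robust quasi-likelihood, TMM scaling, 1 mean per group over 24 libraries, Benjamini-Hochberg over all genes in each comparison, called below 0.05), run in R 4.3.3; the standard error is the fold change divided by the square root of F. For CPM, library sizes were multiplied by the TMM factors. Biological variation in the model had a coefficient of 25%, or 16.9% with the replicate block. Libraries of the same number deviated together in all 10 pairs of groups checked (correlation 0.125 to 0.791 over 11452 genes). The labels do not say what the number stands for. The main fit therefore left it out, and its p-values are unpaired. An alternative fit took it as a block. The main model was also run on simulated counts. These had no effect of the replicate number and so cannot show whether the unpaired p-values hold here. All mitochondrial genes could be named; of the nuclear lists, the 2 called genes with the largest and the 2 with the smallest fold change per list in AM TRAC against VM TRAC and in the mean over 4 targets, RNAs without an A tail and the targeted genes. MYH7 was named as a marker, and TNNT2 and TFAM after their values were seen. Alternatives were relative log expression (RLE) scaling, library size alone, scaling without mitochondrial genes, no filter, DESeq2 1.42.0, a filter of 1 CPM in 3 libraries, the replicate block, fitting only the groups compared, and leaving out libraries; nuclear copies were aligned with Biopython 1.88.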

Additional observations from a re-analysis of the deposited data

Results flagged for a closer look

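The messenger share of counts differed between AM and VM in opposite directions among the targets. The AM mean minus the VM mean was −0.939 percentage points in LHX2 and −1.119 in ZNF503, with every AM library below every VM library in each, and 0.527 in ZNF711, with every AM library above every VM library. The difference between these shares was not tested, since they are sums over the members. Gene by gene, ZNF711 against LHX2 and against ZNF503 was tested after the data were seen: without the replicate block no mitochondrial gene was called in either contrast, and the lowest adjusted p against ZNF503 belonged to MT-CYB, at 1.25 (standard error 0.31, edgeR adjusted p 0.188).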

How the results depend on the processing

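Of 19 mitochondrial genes, 3 were called in AM against VM in TRAC, 11 in LHX2, 8 in ZNF503, 0 in ZNF711 and 15 in the mean over 4 targets. Without the filter the counts were 17 in LHX2, 13 in ZNF503 and 3 in ZNF711. With only the groups compared they were 1 in TRAC, 2 in ZNF503 and 2 in ZNF711. Scaled to the 13 messengers, chosen after seeing the data, they were 0 in TRAC, 5 in LHX2, 0 in ZNF503 and 4 in the mean. On that scale 5 of 13 messengers in TRAC, 4 in LHX2, 7 in ZNF503 and 5 in the mean lay above 0, up to 0.42 for MT-ND6 in ZNF503. Of those called before, with or without the block, MT-ATP6 (0.028), MT-CO2 (0.078, called only with the block) and MT-ND4L (0.11) reversed in ZNF503. In the mean MT-CO2 (0.037), MT-CYB (0.076) and MT-ND6 (0.085) reversed. These reversals arise by construction of a scale on which the messengers sum to a constant. Without LHX2 in the mean the count was 6. Against TRAC, where the count was 0 in each, no filter gave 7 for AM LHX2, 2 for AM ZNF503 and for AM ZNF711, 2 in VM LHX2 and 9 in VM ZNF711, and 3 and 2 in the LHX2 and ZNF503 interactions. Fitting only the compared groups gave 6 for AM LHX2 and 1 for AM ZNF503, and DESeq2 gave 5 in AM LHX2 and 2 in VM ZNF711. For settings other than the main fit and the replicate block, the share of all genes called is not given here. Counts in those settings show how far the calls moved and cannot be set beside that share. The cause of these moves was not tested. The replicate block gave 5 in AM LHX2 and 2 in VM ZNF711; beside these and the calls named with their block values in the text, it changed no other call among these genes.

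With 1 library left out the count ran from 0 to 3 in TRAC, 5 to 10 in LHX2, 2 to 11 in ZNF503, 10 to 15 in the mean and 0 to 1 in VM ZNF711 against VM TRAC. With 1 replicate number left out it ran from 0 to 4, 3 to 11, 0 to 11, 4 to 13 and 0 to 1, with 0 in ZNF503 and 4 in the mean without replicate 2. Leaving out the 5 libraries lowest in MT-RNR2, added later, was possible only for VM LHX2 against VM TRAC, where it gave 0 and its lone VM LHX2 library was assumed to vary like the other groups. The messenger shares moved by less than the spread between replicates in every setting run. Low counts limit the transfer RNAs and MT-ATP8.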
